A study of Mus musculus with 6 samples.

Results

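A set of 10 genes is described here across 6 spinal cord libraries: the annexin genes Anxa1, Anxa2, Anxa3, Anxa4, Anxa5, Anxa6, Anxa7 and Anxa11, and the formyl peptide receptor genes Fpr1 and Fpr2. Its members were taken by symbol from a table of read counts that holds 56859 distinct gene symbols, and all 10 were found and passed the filter on low counts that left 17599 genes. The families were chosen by their names and with the AZ876 against injury fold changes of this table in view, among them that of Anxa1, which ranks 8 by p among all genes, so the fold changes and group differences of the 10 genes are a description and not independent evidence of a difference. The injury group (n = 3) held spinal cord of wild-type mice collected 6 weeks after a contusion at the tenth thoracic level (T10). The injury + AZ876 group (n = 3) was the same tissue and time after daily intraperitoneal AZ876, a drug that activates the liver X receptors (LXR), at 5 mg/kg for 1 week from the injury. The protocols state that control animals were injected with the solvent, whereas the sample labels of the injury group name the contusion alone. An uninjured group was not analysed here, and strain, sex and age are not stated in the labels.

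Annexins are cytosolic proteins that bind acidic phospholipids when calcium rises, which brings them to damaged or fusing membranes. Annexin A1 is also secreted and acts on formyl peptide receptor 2, a G protein-coupled receptor of neutrophils and macrophages, where it limits further leukocyte entry and favours the clearance of dying cells. Formyl peptide receptor 1 binds formylated peptides released by bacteria and by broken mitochondria, and draws phagocytes to them. After a spinal cord contusion, membrane damage and leukocyte entry occur together, and both families are studied there for that reason.

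The table's own annotation gave calcium-dependent phospholipid binding to all 8 annexin genes and N-formyl peptide receptor activity to both receptor genes. The annexin genes are spread over 7 chromosomes in the table, whose build is not named. Anxa1 (ENSMUSG00000024659) is listed on chromosome 19, 20350792 to 20368308, minus strand, and Anxa2 (ENSMUSG00000032231) on chromosome 9, 69360902 to 69399077, plus strand. Fpr1 (ENSMUSG00000045551, chromosome 17 from 18096733 to 18104202, minus strand) and Fpr2 (ENSMUSG00000052270, 18108086 to 18114214, plus strand) are neighbours that start 3883 bases apart and point away from each other. RefSeq promoter windows on GRCm38.p6 were found for 8 of the 10 genes, all but Anxa3 and Anxa6. The positions in the table do not match that build, since the span listed for Anxa2 ends at 69399077 and its window begins at 69453433. Positions of genes and of windows are therefore not to be compared. The 250 bases before the start of Anxa1 and of Anxa2 are shown because these were the annexins of lowest p in the comparison below. Capitals mark the TATA box, searched as TATAAA. They also mark the GC box, searched as GGGCGG on both strands, and the AP-1 motif, whose letters were TGANTCA.
Anxa1, GRCm38.p6 chr19:20390672-20390921, minus strand: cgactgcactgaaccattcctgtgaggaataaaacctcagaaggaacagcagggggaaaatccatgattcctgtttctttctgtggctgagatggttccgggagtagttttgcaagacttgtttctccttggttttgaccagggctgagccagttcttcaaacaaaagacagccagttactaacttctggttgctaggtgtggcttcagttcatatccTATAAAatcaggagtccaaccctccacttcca
Anxa2, GRCm38.p6 chr9:69453433-69453682, plus strand: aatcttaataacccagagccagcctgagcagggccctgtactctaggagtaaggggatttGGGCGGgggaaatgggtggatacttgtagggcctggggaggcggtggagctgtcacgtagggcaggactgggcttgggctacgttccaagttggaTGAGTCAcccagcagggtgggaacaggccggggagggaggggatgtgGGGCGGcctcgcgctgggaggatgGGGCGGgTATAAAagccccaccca
Both windows hold TATAAA near the start of the gene, at −32 in Anxa1 and −17 in Anxa2. At any position in the window, the motif was in 12.4% of all 32851 promoter windows of that length. By that count 4 members held it, Fpr1 and Fpr2 among them. The Anxa1 window is 46% G and C, and the Anxa2 window 62.4%. Anxa2 also holds TGAGTCA at −95, where 6.75% of windows have TGANTCA, and GGGCGG at 3 places, where 32.7% of windows have at least 1, and neither motif is in the Anxa1 window. The direct repeat DR4, to which LXR is known to bind, searched as the strict consensus, was in none of the member windows and in 0.0152% of all windows, and the strict palindrome of the glucocorticoid receptor was in none and in 0.00913%. All motifs were searched on both strands, and a motif outside these windows would not be seen.

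The libraries held 14067649 to 20211175 counts. Spinal cord markers were present in each: the myelin gene Mbp ran from 11690 to 16814 CPM, the astrocyte gene Gfap from 6925 to 12052 CPM and the neuronal gene Snap25 from 443 to 1576 CPM, where CPM is the read count scaled to a common library size. On the first principal component of all tested genes, with 55.4% of the variance, AZ876 replicate 1 (−7.17) and injury replicate 3 (6.31) lay between the other injury libraries (−40.6 and −52.3) and the other AZ876 libraries (44.2 and 49.5), in an order that crosses the groups.

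Levels between genes were compared per length, as TPM, the length-scaled transcript abundance computed from the counts and the GENCODE M21 exon length of each gene. Anxa5 was the most abundant member, from 610 to 977 TPM over the 6 libraries, above every other member in every library. Its product binds exposed phosphatidylserine and is the protein of the common apoptosis stain. Anxa6 (164 to 248 TPM), Anxa2 (114 to 248 TPM) and Anxa3 (89.8 to 165 TPM) came next, and neighbours in that order overlapped. Anxa7 (41.0 to 61.6 TPM), Anxa1 (22.9 to 74.9 TPM), Anxa4 (22.6 to 58.0 TPM) and Anxa11 (23.0 to 33.8 TPM) formed a lower tier, again with overlapping neighbours. The receptors were far below, Fpr1 from 1.43 to 3.73 TPM and Fpr2 from 2.10 to 2.97 TPM, and did not differ from each other beyond that spread. In bulk tissue, fewer cells of a type and less RNA per cell cannot be told apart.

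**Figure D1:**
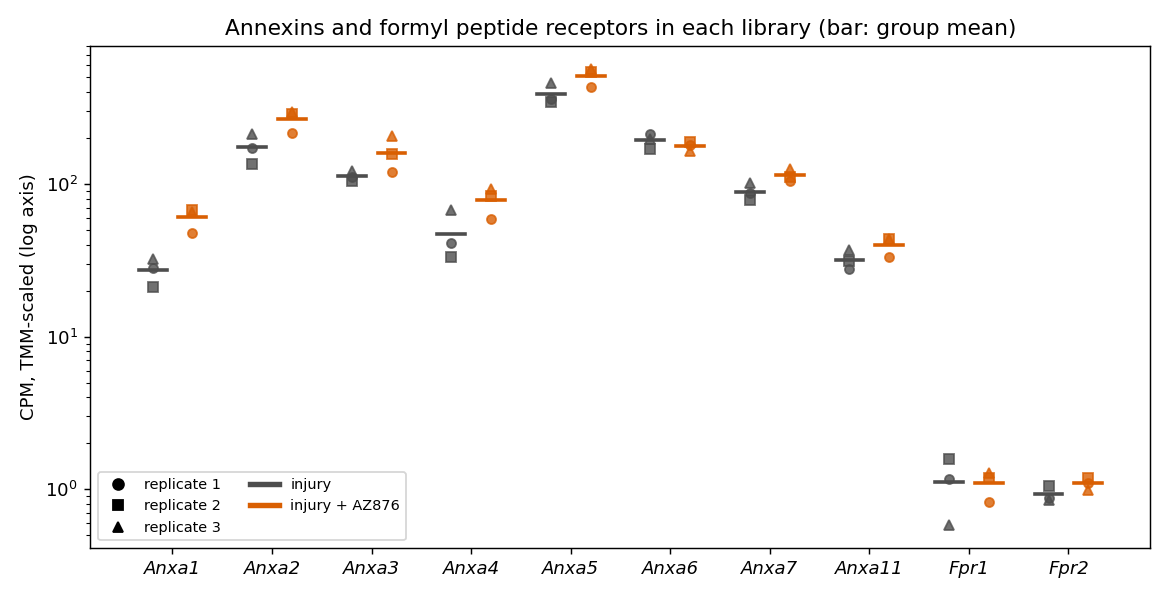
TMM-scaled CPM (log axis) of the 10 genes in the 3 injury libraries (grey) and the 3 injury + AZ876 libraries (orange), with marker shape for the replicate and a bar for the group mean. Anxa1 shows the widest gap between groups, 21.3 to 32.3 CPM against 47.7 to 67.7 CPM, and Fpr1 and Fpr2 lie near 1 CPM in both groups.

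Setting injury + AZ876 against injury asked what a week of LXR agonist left behind at 6 weeks. Of the 8 annexins, 7 had a positive log2 fold change and Anxa6 a negative one, with a median of 0.46, while the median over all 17599 genes was 0.00 and 50.5% of them were positive. For Anxa1, Anxa2 and Anxa7 each AZ876 library was above each injury library, that is 3 of 10 genes, where 10.2% of all genes tested were higher and 8.64% lower without overlap. At an unadjusted p under 0.05 in edgeR's quasi-likelihood test, 6 of the 10 genes were higher and 0 lower, against 7.98% and 6.74% of all genes. With Benjamini-Hochberg adjustment over all genes, edgeR called 0 of the 10 (adjusted p from 0.330 to 0.978) and 0% of all genes, limma-voom called 0 and 0%, and DESeq2 called Anxa1 alone, where it called 0.716% of all genes higher. Since this comparison was in view when the genes were picked, nothing is read from these shares.

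Anxa1, the annexin that glucocorticoids induce and that signals through formyl peptide receptor 2, had the largest fold change of the 10. Its level was 28.2, 21.3 and 32.3 CPM in injury replicates 1, 2 and 3 and 47.7, 67.7 and 65.6 CPM in AZ876 replicates 1, 2 and 3. The groups did not overlap, and AZ876 replicate 1 was the lowest of its group. The means were 27.2 ± 5.55 and 60.3 ± 10.97 CPM (SD, n = 3 each), which is 2.22 times as high with AZ876. The log2 fold change was 1.15 ± 0.20 (SE) and stayed between 1.00 and 1.29 with any 1 library left out. The edgeR adjusted p was 0.330 with all libraries and 0.0444 without AZ876 replicate 1, and it ran from 0.174 to 0.745 without any other library.

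Anxa2 encodes the annexin that pairs with S100A10 at the cell surface and there assembles plasminogen with its activator. Its level was 173, 136 and 213 CPM in the injury libraries and 216, 288 and 295 CPM in the AZ876 libraries. The groups were separate by a narrow margin, since injury replicate 3 and AZ876 replicate 1 were almost equal. The means were 174 ± 38.6 and 266 ± 43.5 CPM, a log2 fold change of 0.61 ± 0.19 (SE) that was 0.78 without injury replicate 3 and 0.74 without AZ876 replicate 1.

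Anxa7, whose product promotes membrane fusion during secretion, was the third annexin without overlap, also by a narrow margin. It was at 86.9, 78.4 and 102 CPM in the injury libraries and 104, 111 and 126 CPM in the AZ876 libraries, which gave a log2 fold change of 0.35 ± 0.14 (SE), or 0.46 without injury replicate 3 and 0.41 without AZ876 replicate 1. With 9.78% its coefficient of variation in the AZ876 group was smaller than that of Anxa1 (18.2%), and in the injury group it was 13.4% against 20.4%.

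Anxa3, Anxa4, Anxa5 and Anxa11 had higher means with AZ876, with overlap between the groups in each. Anxa3, abundant in neutrophils, was at 111, 104 and 122 CPM in the injury libraries and 120, 157 and 205 CPM in the AZ876 libraries, with a log2 fold change of 0.52 ± 0.19 (SE) that was 0.30 without AZ876 replicate 3. Anxa4, best known from epithelia, was at 40.8, 33.4 and 67.8 CPM and at 58.5, 83.7 and 92.1 CPM, with the widest spread of the 8 annexins in the injury group (coefficient of variation 38.2%). Its log2 fold change of 0.72 ± 0.28 (SE) was 1.07 without injury replicate 3, the library that reached into the AZ876 range. Anxa5 had 362, 345 and 459 CPM in the injury libraries and 431, 540 and 568 CPM in the AZ876 libraries, and its log2 fold change was 0.40 ± 0.16 (SE). Anxa11, which tethers RNA granules to lysosomes travelling along axons and is mutated in some human motor neuron disease, had 27.8, 31.3 and 36.7 CPM and 33.2, 43.4 and 43.7 CPM, a log2 fold change of 0.33 ± 0.16 (SE). In each of these 4 genes, AZ876 replicate 1 was the lowest AZ876 library and injury replicate 3 the highest injury library.

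Anxa6, the annexin with a duplicated core that is abundant in neurons and muscle, was the exception among the 8. It was at 213, 169 and 198 CPM in the injury libraries and 181, 188 and 164 CPM in the AZ876 libraries, which overlapped. The means were 193 ± 22.1 and 178 ± 12.2 CPM and the log2 fold change −0.12 ± 0.12 (SE), within −0.21 to −0.05 with any 1 library left out.

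**Figure D2:**
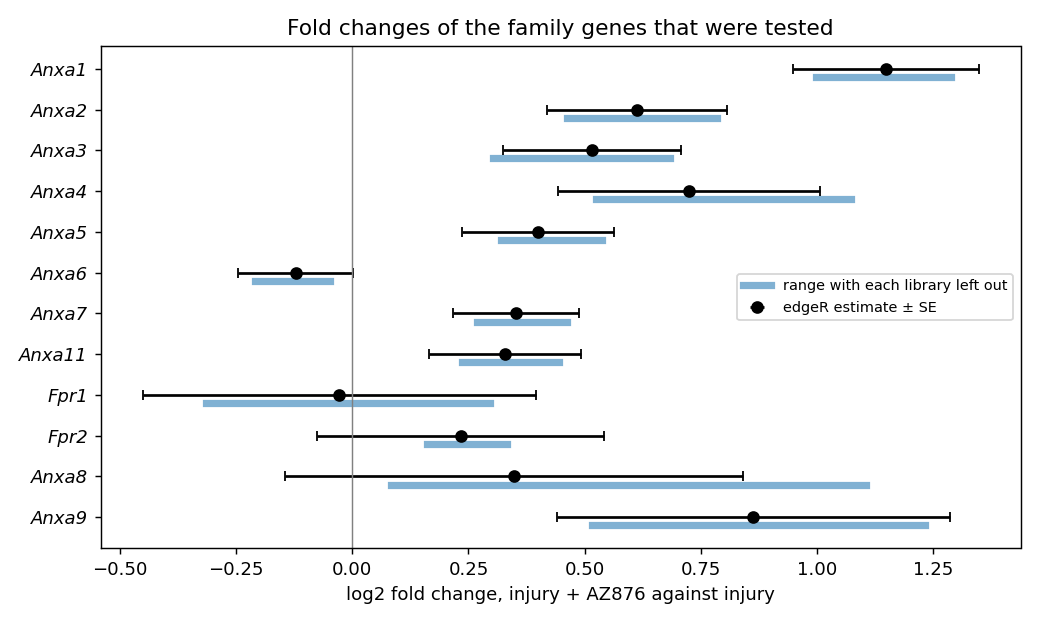
Log2 fold change of injury + AZ876 against injury for the 10 genes and for Anxa8 and Anxa9, with the standard error (black) and the range over the fits that leave out 1 library each (blue). The estimate for Anxa1 is 1.15, Anxa6 and Fpr1 lie at or just below 0, and the ranges of Anxa8 (0.08 to 1.11) and Anxa9 (0.52 to 1.23) are the widest.

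The log2 fold changes of the 8 annexins ran from −0.12 to 1.15, and whether they differ from each other was not tested. The number of Anxa1 reads per Anxa2 read, which needs no scaling between libraries, was 0.163, 0.156 and 0.151 in the injury libraries and 0.221, 0.235 and 0.222 in the AZ876 libraries. The means were 0.157 ± 0.006 and 0.226 ± 0.008 (SD), so the gap between groups was wide against the spread within them, and AZ876 replicate 1 and injury replicate 3 lay with their own groups. Per length, Anxa1 made up 2.44%, 2.06% and 2.35% of the summed annexin TPM in the injury libraries and 3.62%, 4.14% and 3.82% in the AZ876 libraries. The share of Anxa6 was 18.3%, 16.3% and 14.3% with injury and 13.6%, 11.4% and 9.50% with AZ876, so every AZ876 library was below every injury library. Its own TPM overlapped, at 181 to 248 with injury and 164 to 208 with AZ876, and a share also falls when other annexins are higher. Anxa5 kept the largest share, 53.7% ± 1.99 with injury and 53.9% ± 0.356 with AZ876. The sum over the 12 annexin genes of the table was 1326 ± 205 TPM with injury and 1689 ± 144 TPM with AZ876. These shares come from the same libraries as the fold changes and the ratios were chosen with results in view, so they are a description.

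**Figure D3:**
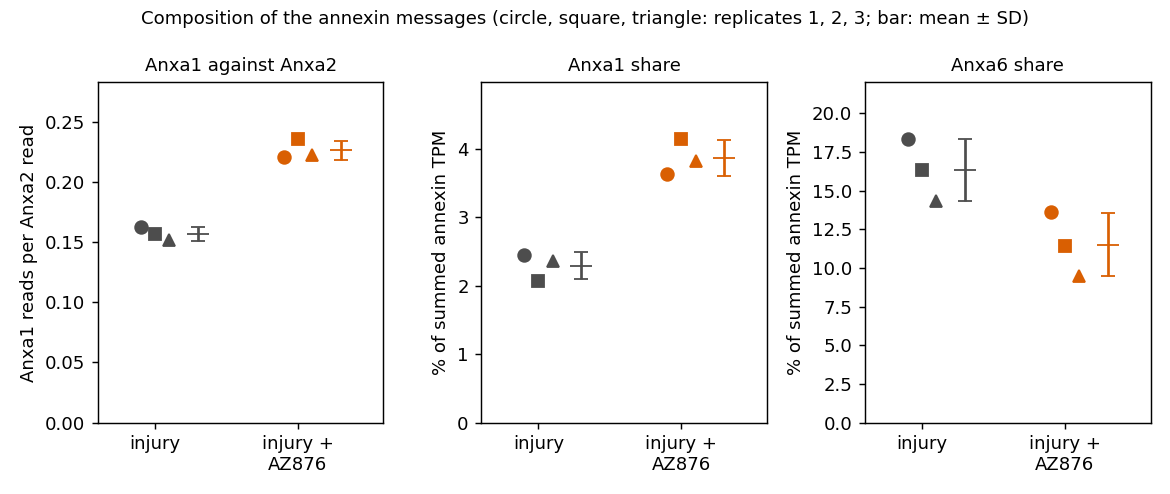
Anxa1 reads per Anxa2 read (left) and the shares of Anxa1 (middle) and Anxa6 (right) in the summed annexin TPM, in percent, for each library with the group mean ± SD. The groups are separate in all 3 panels: 0.151 to 0.163 against 0.221 to 0.235, 2.06% to 2.44% against 3.62% to 4.14%, and 14.3% to 18.3% against 9.50% to 13.6%.

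The receptors showed no difference that these counts could resolve. Fpr1 had 24, 30 and 9 reads in injury replicates 1, 2 and 3 and 12, 17 and 22 reads in AZ876 replicates 1, 2 and 3. The lowest and the highest count were both injury libraries, and their exact 95% Poisson intervals, which cover counting error only, were 4.12 to 17.1 and 20.2 to 42.8. The group means were 1.11 ± 0.498 and 1.10 ± 0.245 CPM (SD), injury first, and the log2 fold change of −0.03 ± 0.42 (SE) turned positive under several alternatives, up to 0.30 without injury replicate 2. Fpr2, a receptor of annexin A1, had 18, 20 and 13 reads and 16, 17 and 17 reads. Its means were 0.925 ± 0.110 and 1.09 ± 0.102 CPM, with overlapping groups and a log2 fold change of 0.23 ± 0.31 (SE). Of the remaining receptors of the family, Fpr3, Fpr-rs3, Fpr-rs4, Fpr-rs6 and Fpr-rs7 were listed at 0 in all 6 libraries. The span listed for Fpr3, 18108114 to 18191939 on the same strand, covers nearly all of Fpr2, and how the authors counted reads in such overlaps is not stated in the labels, so the Fpr2 count may miss reads.

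**Figure D4:**
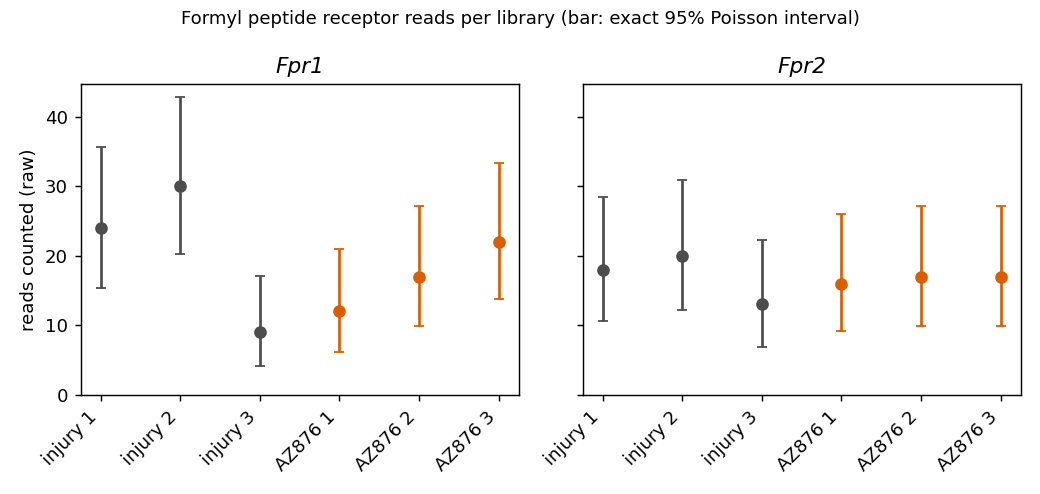
Raw reads of Fpr1 (left) and Fpr2 (right) in each library, not scaled for depth, with exact 95% Poisson intervals. Fpr1 ranges from 9 to 30 reads within the injury group alone, and Fpr2 stays between 13 and 20 reads in all 6 libraries.

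The rest of the annexin family was scarce. Anxa9 had 3.67, 1.57 and 5.01 CPM in the injury libraries and 4.31, 6.53 and 7.69 CPM in the AZ876 libraries (log2 fold change 0.86 ± 0.42, SE, edgeR adjusted p of 0.361). Anxa8 had 2.64, 0.893 and 0.845 CPM and 2.26, 1.41 and 1.98 CPM (0.35 ± 0.49, edgeR adjusted p of 0.736). The groups overlapped for both, and without injury replicate 2 the log2 fold changes were 0.52 for Anxa9 and 0.08 for Anxa8, which had 1.11 without injury replicate 1. Anxa10 and Anxa13, known from stomach and gut, had at most 5 and 3 reads in a library and were not tested.

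Proteins that work with the annexins were followed in lists, written with earlier results of these data known. Of the S100 proteins that bind annexins, S100a11, the partner of annexin A1, was at 51.0, 51.9 and 60.5 CPM with injury and 65.4, 91.7 and 94.2 CPM with AZ876. Its groups did not overlap, and its log2 fold change of 0.62 ± 0.16 (SE) had an edgeR adjusted p of 0.330. S100a10, the partner of annexin A2, was at 85.0, 75.7 and 79.5 CPM and at 78.0, 110 and 97.4 CPM (0.25 ± 0.14, edgeR adjusted p of 0.406), with overlapping groups, and its log2 fold change was 0.13 without AZ876 replicate 2. S100a6 had a log2 fold change of 0.36 ± 0.20 (edgeR adjusted p of 0.393), or 0.12 without AZ876 replicate 3, and S100a4 had at most 0.351 CPM in a library and was not tested. All 7 tested genes of plasmin generation had a positive log2 fold change (median 0.49), 2 of them at an unadjusted p under 0.05, where 50.5% of all genes were positive and 7.98% higher at that p. Plau, the urokinase gene (0.77 ± 0.32), and Plgrkt, a plasminogen receptor gene (0.33 ± 0.16), overlapped between groups, with edgeR adjusted p-values of 0.334 and 0.364, and Plau had 0.43 without AZ876 replicate 3.

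Of the genes of calcium-driven membrane repair, 8 of 12 were positive, with a median log2 fold change of 0.07, and 0 were called. Within it Myof, which encodes the ferlin myoferlin, was at 43.3, 28.7 and 49.6 CPM with injury and 61.4, 74.3 and 89.1 CPM with AZ876 (0.89 ± 0.22, edgeR adjusted p of 0.330). Ahnak, a giant scaffold that S100A10 and annexin A2 bind, was at 324, 212 and 294 CPM and at 399, 417 and 475 CPM (0.64 ± 0.17, edgeR adjusted p of 0.330). Neither overlapped between groups. Of the 12 genes, 3 were higher and 1 was lower without overlap, where 10.2% and 8.64% of all genes tested were. Trim72, the muscle repair gene, was lower on average (−1.18 ± 0.63, edgeR adjusted p of 0.387) with an injury range of 0.780 to 4.04 CPM, and its log2 fold change was −0.21 without injury replicate 2, the highest library.

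Downstream of the receptors, 15 of 17 signalling and oxidase genes had a positive log2 fold change (median 0.65), 8 of them at an unadjusted p under 0.05, against 50.5% positive and 7.98% higher at that p over all genes, and edgeR called 0. The G protein gene Gnai3 was at 53.9, 57.1 and 65.9 CPM with injury and 70.0, 85.4 and 91.2 CPM with AZ876, without overlap (0.48 ± 0.14, edgeR adjusted p of 0.330). It was the only 1 of the 17 genes without overlap, where 10.2% of all genes tested were higher without overlap. Fgr, a myeloid Src-family kinase gene, and Cybb, the catalytic chain of the phagocyte oxidase, had larger log2 fold changes of 1.14 ± 0.35 and 0.98 ± 0.33 but overlapped, since injury replicate 3 (10.3 and 71.8 CPM) was above AZ876 replicate 1 (9.92 and 60.0 CPM). Without injury replicate 3 these log2 fold changes were 1.48 and 1.31. Among further ligands of the receptors, 4 of 5 tested were positive. Saa3, a serum amyloid gene, ranged from 1.13 to 18.5 CPM with injury and from 16.6 to 59.7 CPM with AZ876 (2.02 ± 0.84, edgeR adjusted p of 0.334), with a log2 fold change of 3.20 without injury replicate 3. Camp, the cathelicidin gene, was at 1.42 to 5.66 and 2.80 to 12.5 CPM, and App, the amyloid precursor gene, at 1317 to 1441 and 1087 to 1349 CPM, both with overlap.

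Other mediators of resolution and the glucocorticoid axis were followed as well. The list of mediator enzymes and receptors also held the leukotriene genes Lta4h and Ltb4r1 and the gene Mertk, so it is not confined to lipid mediators of resolution. Of its 11 tested genes, 9 were positive (median 0.43), where 50.5% of all genes were. At an unadjusted p under 0.05 in edgeR, 0 were higher and 1 was lower, against 7.98% and 6.74% of all genes. Without overlap between groups, 4 of the 11 were higher and 1 was lower, where 10.2% and 8.64% of all genes tested were. Lgr6, a receptor for maresin 1, was the exception of lowest p, at 3.86, 3.20 and 5.07 CPM with injury and 2.60, 1.48 and 1.81 CPM with AZ876 (−1.04 ± 0.31, edgeR adjusted p of 0.330). Cmklr1, the resolvin E1 and chemerin receptor gene (0.45 ± 0.21), and Ptgs2, the inducible cyclooxygenase gene (0.65 ± 0.34), overlapped between groups, and had 0.26 and 0.38 without AZ876 replicate 3. The glucocorticoid receptor and its response genes were negative in 9 of 10 cases (median −0.51), where 50.5% of all genes were positive. Of these, 3 were lower at an unadjusted p under 0.05 in edgeR, against 6.74% of all genes, and 0 were called. The relation of these genes to Anxa1 was not tested. Tsc22d3, a classical glucocorticoid-induced gene, was at 237, 371 and 242 CPM with injury and 196, 207 and 194 CPM with AZ876 (−0.51 ± 0.18), and its log2 fold change was −0.27 without injury replicate 2, the highest library. Hsd11b1, which regenerates active glucocorticoid in cells, was at 17.7, 21.8 and 16.8 CPM and at 13.3, 5.90 and 9.73 CPM (−0.96 ± 0.29). Neither overlapped, both had an edgeR adjusted p of 0.330, and Zbtb16 (−0.85 ± 0.28) did overlap. Of the 10 genes of the list, 2 were lower and 1 was higher without overlap, where 8.64% and 10.2% of all genes tested were.

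Several cell types make annexins, and marker lists of some differed with the groups. Fibroblast and meningeal markers were positive in 15 of 15 cases (median log2 fold change 0.94), and their summed level was 891 to 2255 CPM in the injury libraries and 2687 to 3786 CPM in the AZ876 libraries. Schwann cell markers were positive in 9 of 9 (median 0.68), with 802 to 1698 CPM and 2015 to 2401 CPM. T and natural killer cell markers (11 of 11, median 1.62) summed to 11.1 to 22.8 CPM and 29.8 to 52.0 CPM, and neutrophil markers (11 of 12, median 0.92) to 129 to 327 CPM and 342 to 757 CPM. In these 4 lists, and by a narrow margin in endothelial cells (9 of 10, median 0.33, 561 to 647 and 648 to 782 CPM), the sums of the groups did not overlap. Monocyte and macrophage markers (14 of 15, median 1.06) overlapped, at 2535 to 4943 CPM and 3965 to 10264 CPM. Microglial markers (9 of 10, median 0.31) also overlapped, at 1056 to 1577 and 1198 to 1967 CPM. Neuronal markers were negative in 12 of 12 (median −0.75), at 4287 to 5618 and 1857 to 4147 CPM, and oligodendrocyte markers in 9 of 10 (median −0.23), at 27268 to 29565 and 21286 to 26377 CPM. The sums of both these lists were also without overlap, and lower with AZ876. None of the markers in the lists of this paragraph was at 0 in all libraries. The part of these cell types in the annexin values was not tested.

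The genes whose profiles over the 6 libraries were most like those of Anxa1 and Anxa2 were found among 12390 genes with a mean of at least 5 CPM, by the root mean square difference of centred log2 CPM. The 5 nearest to Anxa1 were Fgl2, an immune-regulatory fibrinogen-like gene (0.07), Ppic, a cyclophilin gene (0.07), Pawr (0.09), Gypc (0.09) and Cp, the ceruloplasmin gene (0.10), where the median gene was at 0.64. Fgl2 was at 43.4, 35.8 and 54.7 CPM with injury and 71.6, 104 and 104 CPM with AZ876. The 5 nearest to Anxa2 were Olfml2b (0.02), the basement membrane collagen gene Col4a5 (0.04), Rai14 (0.04), Plp2 (0.05) and Fmo5 (0.06), where the median gene was at 0.42. Among the members themselves, the closest pairs were Anxa5 with Anxa7 (0.08) and Anxa5 with Anxa11 (0.08), and the most distant were Anxa1 with Fpr1 (0.77) and Anxa4 with Fpr1 (0.76). The distance is not scaled for noise, and Fpr1 had only 9 to 30 reads per library, so its distances include counting error. With 6 libraries in 2 groups, these distances are a description.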

How the data were processed

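RNA from 6 spinal cord samples was measured as 1 table of raw read counts per gene, whole numbers deposited by the authors with no normalization and 1 column per sample. Of the tools, fastp (version 0.23.0) and HISAT2 (version 2.1.0) are named, per the submitters' processing notes. For the counting step, its strand setting, the build and the annotation, nothing is stated in the labels. Columns were assigned by library name and groups by title. Separate animals per replicate are not stated, so a p-value reflects variation between these samples that can be partly technical, and all samples carry the same batch label.

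The table has 57010 rows, and 148 symbols on several rows had identical counts on each, so 1 row was kept per symbol. Low counts were removed with filterByExpr, libraries scaled by TMM, and AZ876 tested against injury by the quasi-likelihood test of edgeR with robust settings (versions: edgeR 4.0.16, limma 3.58.1, DESeq2 1.42.0, R 4.3.3) and p-values were adjusted by Benjamini-Hochberg over the 17599 tested genes, at a threshold of 0.05. Log2 CPM used a prior count of 2. The SE was obtained from the F statistic, as the fold change (log2) over its root. TPM used the union of exons in GENCODE M21, matched by identifier for 98.6% of the tested genes. Total counts were 14067649 to 20211175 per library, and no library was a copy of another (chi-square per degree of freedom of at least 13.1 between pairs). The fit was tested on simulated data first.

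The members, the 9 pathway lists and the 15 marker lists were chosen with earlier results of these data known. Named by rule were all members, the rest of both families, the S100 partners, the 3 genes of lowest p in every other pathway list and the 5 genes most like Anxa1 and Anxa2, and 1 gene that this rule takes is not reported here. Alternatives were DESeq2, limma-voom, 3 other scalings, no low-count filter, a replicate block and each library left out.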

Additional observations from a re-analysis of the deposited data

How the results depend on the processing

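With adjustment over all genes, the number of genes called was 0 in edgeR, 0 in limma-voom, 0 under the 3 other scalings, 177 in DESeq2 (126 higher and 51 lower), 6 with no low-count filter and 0 to 363 with 1 library left out, where 363 came without AZ876 replicate 1. Of the 10 members, 1 was called in DESeq2 and 1 with no low-count filter, and 0 to 1 with 1 library left out, each time Anxa1 (adjusted p of 0.0014, 0.0295 and, without AZ876 replicate 1, 0.0444). Of the genes in the pathway lists, 1 was called in DESeq2 and 0 to 1 with 1 library left out, S100a11 without AZ876 replicate 1. The members without overlap numbered 3 to 7 with 1 library left out: 7 higher without AZ876 replicate 1 (24.3% of all genes) or injury replicate 3 (22.7%), and with injury replicate 2 left out 4 higher (14.8%) and 1 lower (13%). The log2 fold change of Fpr1 changed sign in limma-voom (0.05) and ranged from −0.31 to 0.30 with 1 library left out, with a positive value when injury replicate 1 (0.01) or 2 (0.30) or AZ876 replicate 1 (0.14) was left out. The cause was not tested. No other member changed sign under any alternative run. The groups share replicate numbers. Deviations of same-numbered libraries had correlations of 0.39, −0.14 and 0.32, and those of the other pairs ran from −0.49 to 0.34. With so few pairs, these values cannot tell whether the numbers pair the libraries. With the replicate block 2 genes were called, 0 of them members, and Fpr1 was at 0.02. Depth limits the receptors, which had 9 to 30 reads per library.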

Other observations

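The remaining marker lists showed the following values. Astrocyte markers were positive in 6 of 10 cases (median log2 fold change 0.16), with sums of 12469 to 16797 CPM in the injury libraries and 12178 to 18237 CPM in the AZ876 libraries. Ependymal markers (9 of 9, median 0.47) summed to 74.3 to 122 and 93.8 to 136 CPM, and pericyte and smooth muscle markers (6 of 9, median 0.10) to 361 to 474 and 445 to 507 CPM. Skeletal muscle markers (9 of 9, median 0.53) summed to 9.23 to 26.9 and 16.5 to 51.5 CPM, and sensory ganglion markers (1 of 6, median −0.34), with Mrgprd at 0 in all libraries, to 15.0 to 56.7 and 19.7 to 41.5 CPM. Red blood cell genes (5 of 5, median 1.57) summed to 1809 to 4296 CPM with injury and 3200, 4652 and 17206 CPM in AZ876 replicates 1, 2 and 3. The groups overlapped in all 6 lists.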
